A study of Oryctolagus cuniculus with 134 samples.

Results

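Endothelial cells catch circulating leukocytes with a short set of surface proteins, and the RNA of 3 of them was followed here across the aorta and the heart valves of rabbits on different diets. The members were named by symbol as VCAM1, ICAM1, SELE and SELP, and a gene was taken when its symbol in the count tables was identical to a member's. This found 3 of the 4 named genes among the 14716 listed genes that carry a symbol, namely ICAM1 (ENSOCUG00000029644), SELE (ENSOCUG00000017438) and SELP (ENSOCUG00000016477). VCAM1 was not analysed here. All 3 genes passed the filter on low counts in each of the 5 tissues.

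SELE encodes E-selectin and SELP encodes P-selectin, the endothelial proteins on which leukocytes tether and roll. P-selectin is stored in endothelial granules and in platelets and reaches the surface within minutes, whereas E-selectin has to be made after a cytokine signal. ICAM1, a member of the immunoglobulin superfamily, holds the rolling cell by its β2 integrins so that it can stop and cross the vessel wall, and VCAM1 does so through α4 integrins. ICAM1 is also made by macrophages and stromal cells under inflammatory signals, while E-selectin RNA is largely restricted to activated endothelium. In arteries exposed to high cholesterol, these molecules are known for their part in the entry of monocytes into the intima.

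RNA of the proximal aorta and of the aortic, mitral, pulmonary and tricuspid valves was sequenced from 27 male New Zealand White rabbits, which were 12 weeks old at the start of a 16-week protocol. Control rabbits (Ctrl, 7 animals) ate plain chow and received no vitamin D2. CHT rabbits (6 animals) ate chow with 0.3% cholesterol, Lard rabbits (7 animals) chow with 5% lard, and IR/CHT rabbits (7 animals) the cholesterol chow together with 24 Gy of cardiac irradiation, given after 8 weeks of diet in 3 fractions of 8 Gy spaced 48 h apart. All of these treated groups also received vitamin D2, 25000 U per day for each 2.5 kg of body weight over 15 days, so that the effects of the diet and of the vitamin cannot be told apart in a comparison with Ctrl, and irradiation was sequenced with the cholesterol diet alone. Each group had 7 libraries in each tissue, except 6 for CHT throughout and 6 for the mitral valve of Ctrl. Libraries were made from 10 ng of RNA on 2 plates. Plate 2 held every aorta library, and plate 1 held the 6 CHT libraries of the aortic valve and the 6 of the mitral valve, whereas the other groups of the valves were split between the plates. Total counts ranged from 13564979 to 50577676 with a median of 18235577. The summed endothelial markers of 14 valve libraries, 6 of the aortic, 5 of the mitral, 2 of the tricuspid and 1 of the pulmonary valve, lay below the median of their tissue divided by 3, and called values of the members in those valves are also given without these libraries where the call was lost. Levels are given as read counts scaled to a fixed library total (CPM) on library sizes scaled by the trimmed mean of M-values (TMM), and they are not comparable between genes because they are not divided by gene length.

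The plot of levels by library gives the whole range of the 3 genes. ICAM1 spanned from a group mean of 12.3 CPM in the aorta of Ctrl rabbits to 122 CPM in the aortic valve of IR/CHT rabbits. SELP had its lowest group mean in the same Ctrl aorta, at 1.51 CPM, and its highest in the pulmonary valve of Lard rabbits, at 48.4 CPM. SELE was scarce in all groups, with means from 0.0695 CPM in the mitral valve of Lard rabbits to 3.07 CPM in the aorta of IR/CHT rabbits, and in the Ctrl aorta it was represented by 0 to 9 counts per library. Counting error alone is therefore large for SELE in the groups where it was low.

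**Figure D1:**
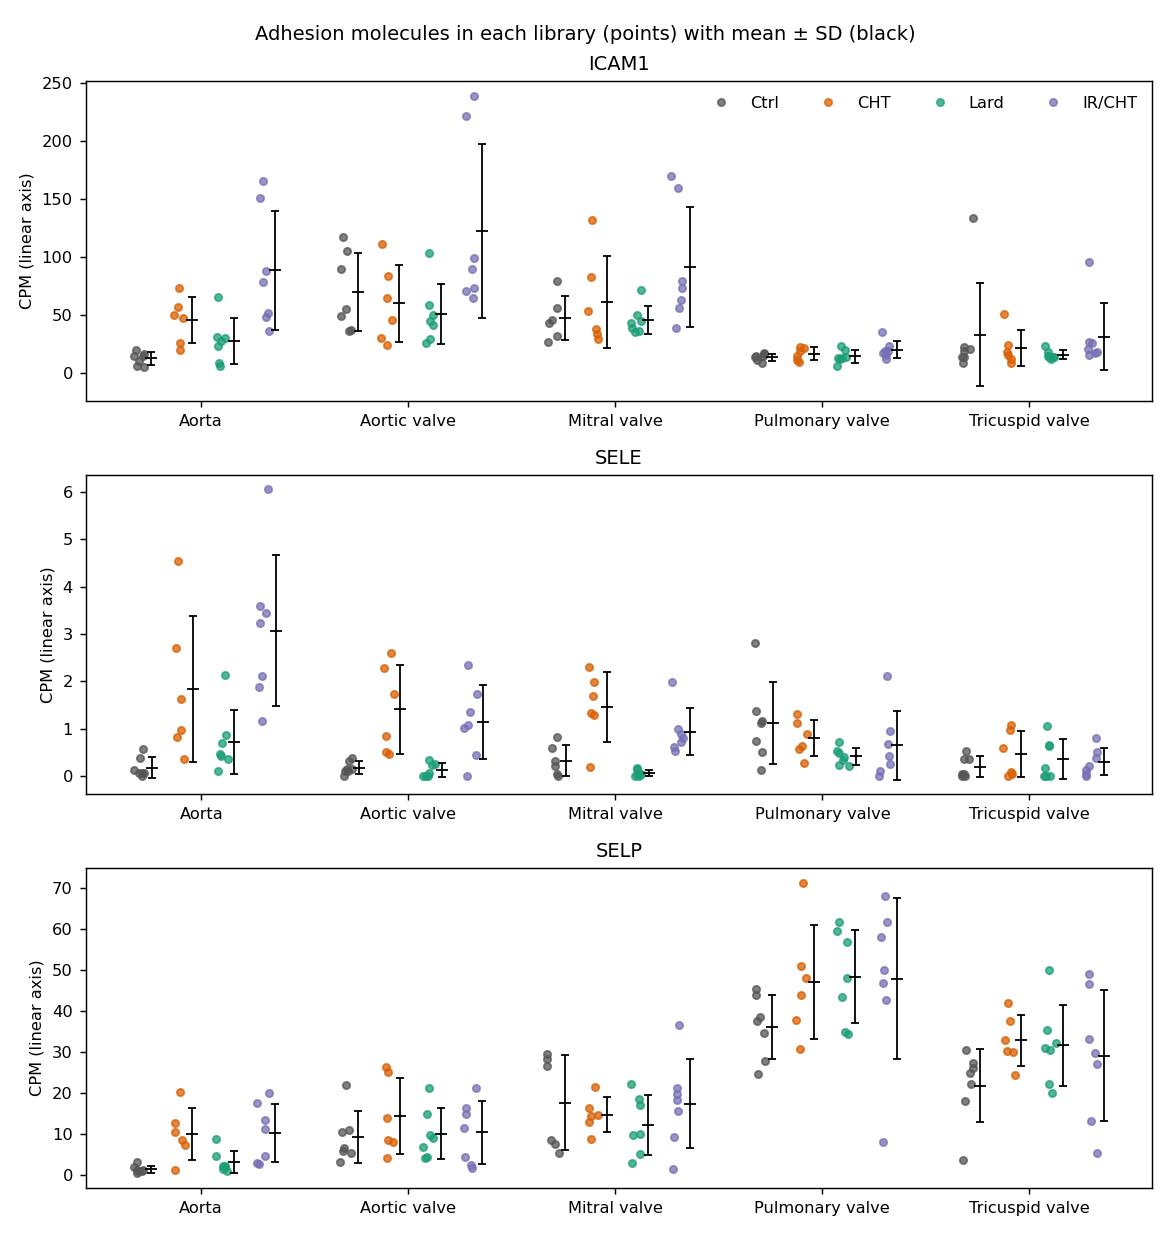
Level of ICAM1, SELE and SELP (CPM, linear axis) in each library, by tissue and treatment; points are libraries and the black bars are the mean and SD of the group. The 6 CHT and 7 IR/CHT aortas lie above all 7 Ctrl aortas for ICAM1, and SELP is highest in the pulmonary valve in every treatment.

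In rabbits on plain chow, the tissues differed in these genes before any treatment. Tissues were compared in 1 edgeR quasi-likelihood model of all libraries with a mean for each tissue and treatment, in which 17030 genes were tested. A call required a p under 0.05 after Benjamini-Hochberg adjustment and a fold change over 1.5, here and in the treatment comparisons. SELP RNA was higher in each of the 4 valves than in the aorta. It ranged from 0.63 to 3.22 CPM (median 1.33) in the aorta, from 3.29 to 22.1 (median 6.59) in the aortic valve, from 5.34 to 29.6 (median 17.6) in the mitral valve, from 24.7 to 45.5 (median 37.7) in the pulmonary valve and from 3.66 to 30.4 (median 24.9) in the tricuspid valve. The lowest library of each valve was thus above the highest aorta.

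The log2 difference of SELP from the aorta was 2.61 (SE 0.51, adjusted p = 6.47e-06) for the aortic valve, 3.54 (SE 0.53, adjusted p = 1.36e-08) for the mitral valve, 3.84 (SE 0.53, adjusted p = 7.33e-10) for the tricuspid valve and 4.57 (SE 0.54, adjusted p = 2.29e-12) for the pulmonary valve. The pulmonary valve also exceeded the aortic valve by 1.96 (SE 0.47, adjusted p = 0.000205), and the tricuspid valve exceeded it by 1.23 (SE 0.46, adjusted p = 0.0205). With the mean log2 CPM of the endothelial markers as a covariate of the model, which was added once the data had been seen, the latter difference was 0.28 and no longer called (adjusted p = 0.541). Neighbouring valves in this order did not pass the test. The interval of the difference was -0.02 to 1.87 for the mitral against the aortic valve, and -1.63 to 0.17 for the tricuspid against the pulmonary valve. Endothelial markers followed the same order at its ends, since the summed CPM of 11 such genes, among them VWF and CDH5, ran from 141 to 257.97 in the Ctrl aortas, against group means of 1405 to 1736 in the pulmonary and 1357 to 1624 in the tricuspid valve over the 4 treatments. In bulk tissue, a difference in the number of endothelial cells and a difference in RNA per cell cannot be told apart, and this holds for every comparison that follows.

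ICAM1 had another order on chow. It was highest in the aortic valve (69.8 ± 33.6 CPM, SD, n = 7) and the mitral valve (47.0 ± 19.0, n = 6) and low in the pulmonary valve (13.5 ± 3.00, n = 7) and the aorta (12.3 ± 5.51, n = 7). No library of the aortic valve, whose lowest was 35.6 CPM, reached down to the highest aorta at 19.5 CPM or the highest pulmonary valve at 16.7 CPM. The aortic valve exceeded the aorta by 2.51 on the log2 scale (SE 0.44, adjusted p = 6.36e-07), and the mitral valve exceeded it by 1.94 (SE 0.44, adjusted p = 0.000159). The pulmonary valve was lower than the aortic valve by -2.37 (SE 0.44, adjusted p = 2.47e-06) and lower than the mitral valve by -1.80 (SE 0.44, adjusted p = 0.00111). Of the 6 Ctrl mitral libraries, 3 are among those low in endothelial markers, and without the low libraries the difference of pulmonary and mitral valve was -1.35 and no longer called (adjusted p = 0.0595). The pulmonary valve and the aorta differed by 0.14 with an interval of -0.70 to 0.97, and the mitral and the aortic valve by -0.57 with an interval of -1.43 to 0.29.

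The place of the tricuspid valve in the ICAM1 order rested on 1 animal. Its Ctrl libraries ranged from 8.18 to 133 CPM with a median of 18.7, and library L168 supplied the highest value while the next was 21.7. This library is among those low in endothelial markers, which summed to 475.7 CPM in it and to 1186 CPM or more in the other Ctrl tricuspid valves. The called difference from the aorta, 1.42 (SE 0.43, adjusted p = 0.00465), was 0.41 with an adjusted p of 0.317 without that library, and the difference from the pulmonary valve went from 1.28 (adjusted p = 0.0249) to 0.22 (adjusted p = 0.803). The latter call was also lost without any of 8 other libraries in models of the Ctrl libraries, at differences of 1.20 to 1.39 (adjusted p = 0.0535 to 0.111). The tricuspid valve was also called lower than the aortic valve by -1.09 (SE 0.42, adjusted p = 0.0229), a call that was lost in 9 of 14 models without 1 library and with the endothelial covariate (-0.94, adjusted p = 0.0505).

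SELE on chow was highest in the pulmonary valve, where it ranged from 0.133 to 2.81 CPM (median 1.13). The other 4 tissues had group means of 0.178 to 0.334 CPM. The pulmonary valve exceeded the aorta by 2.57 (SE 0.78, adjusted p = 0.00423), the aortic valve by 2.62 (SE 0.78, adjusted p = 0.00241) and the tricuspid valve by 2.49 (SE 0.77, adjusted p = 0.0153), whereas its difference from the mitral valve, with an interval of 0.21 to 3.25, did not pass (adjusted p = 0.0703). The call against the tricuspid valve was lost in 6 of 14 models that left out 1 library, and the call against the aorta was lost with the endothelial covariate (0.46, adjusted p = 0.757). The call against the aortic valve was lost in 1 of 8 other settings (adjusted p = 0.126), with differences of 1.39 to 2.67 over these settings. Of the 3 genes, 2 were called between aortic valve and aorta, where 49.7% of all tested genes were called. The corresponding counts and shares of all genes against the aorta were 2 and 32.2% for the mitral valve, 2 and 38.7% for the pulmonary valve, and 2 and 31.1% for the tricuspid valve. Between valves they were 3 and 47.3% for pulmonary against aortic, 2 and 38.7% for tricuspid against aortic, 1 and 24.4% for pulmonary against mitral, and 2 and 15.2% for tricuspid against pulmonary. No member was called between the mitral and the aortic valve (12.2% of all genes) or between the tricuspid and the mitral valve (6.65%), where edgeR gave 0 members at an unadjusted p under 0.05 and DESeq2 called 0. For either pair, 1 of 13 models without 1 library called 1 member. The mitral against the aortic valve also had 1 without the libraries low in endothelial markers. These tests did not use that tissues came from the same rabbits. With the rabbit as a block, ICAM1 was called lower in the tricuspid than in the mitral valve (-1.11, adjusted p = 0.0315), SELE (1.84, adjusted p = 0.0437) and SELP (1.30, adjusted p = 0.0163) were called higher in the pulmonary than in the mitral valve, and the ICAM1 difference of tricuspid and pulmonary valve was no longer called (0.76, adjusted p = 0.146). All aorta libraries were on the same plate, so that the differences of the valves from the aorta were not tested with the plate as a term.

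All 3 adhesion molecules rose in the aorta of the CHT rabbits. Treatments were compared within each tissue in a quasi-likelihood model of its libraries, with 14777 genes tested in the aorta. ICAM1 ranged from 5.02 to 19.5 CPM (median 14.7) in Ctrl and from 19.7 to 72.8 CPM (median 48.3) in CHT. SELP ranged from 0.63 to 3.22 CPM (median 1.33) in Ctrl and from 1.18 to 20.2 CPM (median 9.52) in CHT. SELE rose from a range of 0 to 0.576 CPM (0 to 9 counts, median 1) in Ctrl to one of 0.373 to 4.53 CPM (6 to 86 counts, median 24) in CHT. The 2 groups did not overlap for ICAM1, while 1 of 6 CHT libraries lay within the Ctrl range for SELE and 1 of 6 for SELP. How many of all genes separate the groups in this way was not counted, here or in the other comparisons.

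The fold change in the CHT aorta was 3.76 for ICAM1 (log2 1.91, SE 0.47, adjusted p = 0.00291), 9.79 for SELE (log2 3.29, SE 0.69, adjusted p = 0.000669) and 6.82 for SELP (log2 2.77, SE 0.57, adjusted p = 0.000634). All 3 members were thus called higher, against 14.2% of all tested genes called higher and 19.4% called in either direction. Each call was kept in all 13 models that left out 1 library, and in the model of those 2 groups alone SELE failed the filter. With 0 to 9 counts per Ctrl library, SELE passed the low-count filter in the aorta through the treated libraries, where it was higher, and its count among the called members is no support on its own. Without any filter its difference was 3.30 (adjusted p = 0.000597).

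The group means of the 3 genes in the aorta were highest with irradiation and cholesterol together. For SELP the means of CHT and IR/CHT were close, at 10.1 and 10.4 CPM. In IR/CHT, ICAM1 ranged from 35.9 to 165 CPM (median 78.5), SELE from 1.17 to 6.05 CPM (19 to 113 counts, median 3.23 CPM) and SELP from 2.86 to 20.1 CPM (median 11.2). Every IR/CHT library exceeded every Ctrl library for ICAM1 and SELE, and the groups overlapped for SELP. Against Ctrl the change was 7.46-fold for ICAM1 (log2 2.90, SE 0.47, adjusted p = 1.57e-05), 16.5-fold for SELE (log2 4.05, SE 0.68, adjusted p = 2.55e-05) and 7.10-fold for SELP (log2 2.83, SE 0.56, adjusted p = 0.000178). All 3 were called, beside 22.2% of all genes called higher and 34.3% in either direction, and the calls were kept in all 14 models without 1 library. SELE passed the filter here too through the libraries where it was high, and without any filter its difference was 4.04 (adjusted p = 1.93e-05).

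The step from CHT to IR/CHT in the aorta was not resolved for any member. The difference was 0.99 for ICAM1 (interval 0.04 to 1.93, adjusted p = 0.203), 0.75 for SELE (interval -0.45 to 1.96, adjusted p = 0.433) and 0.06 for SELP (interval -1.04 to 1.15, adjusted p = 0.957). The edgeR test called 0 members with 1 at an unadjusted p under 0.05, DESeq2 called 0, and 0.596% of all genes were called. For SELP this interval leaves room for a change of either sign, while for ICAM1 it lay above 0.

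In the aorta of the Lard rabbits the 3 genes had medians between those of Ctrl and CHT. ICAM1 ranged from 5.66 to 65.3 CPM (median 27.5), SELE from 0.106 to 2.15 CPM (median 0.471) and SELP from 1.01 to 8.92 CPM (median 2.19). Against Ctrl the log2 difference was 1.17 for ICAM1 (interval 0.25 to 2.08, adjusted p = 0.186), 1.94 for SELE (interval 0.55 to 3.34, adjusted p = 0.141) and 1.10 for SELP (interval -0.03 to 2.23, adjusted p = 0.332). The edgeR test called 0 of 3 members with 2 at an unadjusted p under 0.05, DESeq2 called 0, and 2.61% of all genes were called. Against CHT, only SELP was called lower in Lard, by -1.67 (SE 0.55, adjusted p = 0.0454), beside 7.33% of all genes called lower and 9.35% called in all. That call was lost in 9 of 13 models that left out 1 library, with an adjusted p of up to 0.159. The comparisons of a tissue share libraries, Ctrl or CHT, and are therefore not independent of each other.

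**Figure D2:**
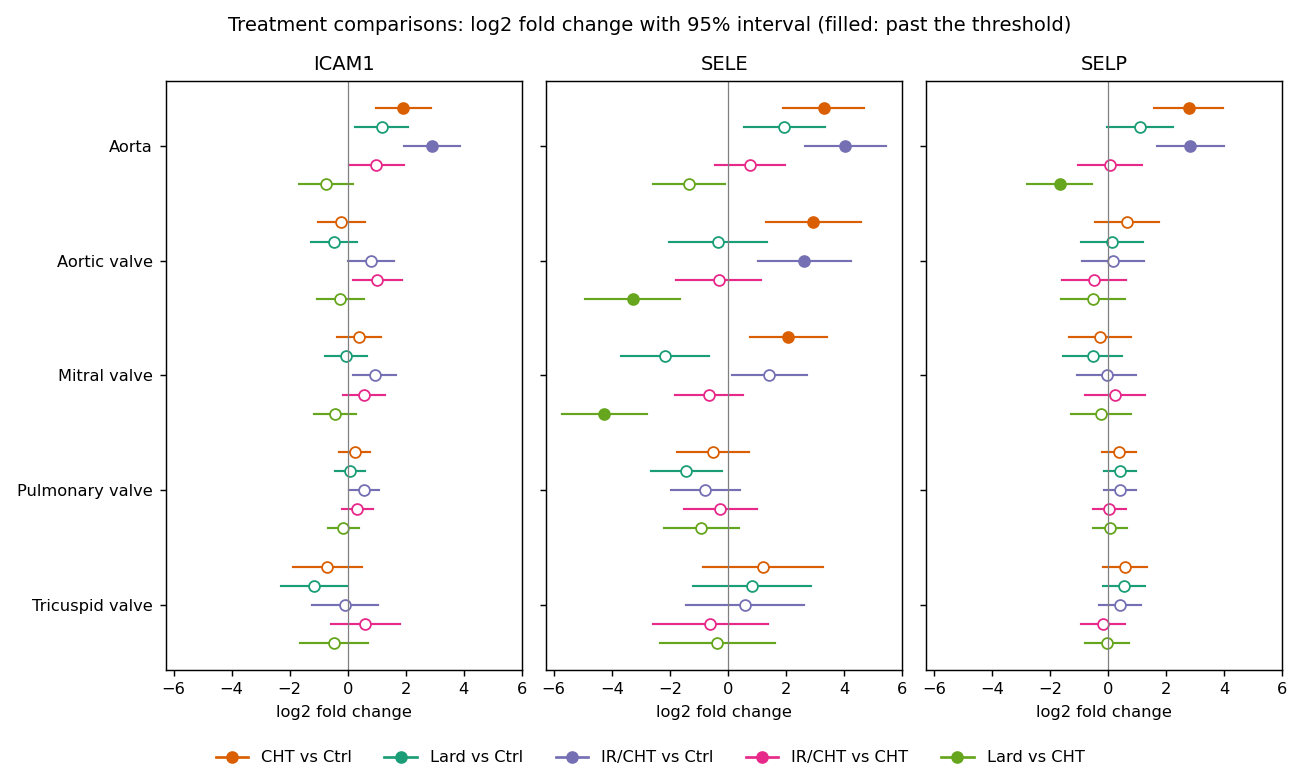
Difference between treatments for ICAM1, SELE and SELP in each tissue (log2 fold change from edgeR with its 95% interval); filled points passed the threshold. In the aorta the CHT and IR/CHT points against Ctrl lie between 1.91 and 4.05 for all 3 genes, while in the valves only SELE has called points.

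Markers of endothelium moved with the members in the aorta. Of the 11 endothelial markers tested, 10 were called higher in CHT and 10 in IR/CHT, with median log2 changes of 1.54 and 1.98 beside a median of all genes of -0.04 and 0.00. Their summed level was 141 to 257.97 CPM in Ctrl, 223 to 1129 CPM in CHT, 256 to 640 CPM in Lard and 301 to 1257 CPM in IR/CHT. Markers of macrophages rose as well, with 11 of 13 called in CHT and 13 of 13 in IR/CHT, and their sum went from 74.8 to 322 CPM in Ctrl to 477 to 1191 CPM in CHT and 707 to 2458 CPM in IR/CHT. Of 7 smooth muscle markers, 3 were called lower in CHT and 6 in IR/CHT. T cell markers were called higher for 1 of 5 in CHT and 5 of 5 in IR/CHT. Platelet markers, of which 1 of 3 was called higher and 1 lower in CHT, summed to 2.37 to 17.2 CPM in Ctrl and 6.85 to 16.6 CPM in CHT, and the platelet glycoprotein gene GP9 was at 0 in 24 of 27 aortas. Of the 3 neutrophil markers tested, S100A8 (4.69, adjusted p = 0.000441) and FPR1 (2.58, adjusted p = 0.00158) were called higher in IR/CHT, while in CHT they were at 2.47 (adjusted p = 0.0978) and 1.31 (adjusted p = 0.15) without a call. The summed neutrophil markers ranged from 0.699 to 2.33 CPM in Ctrl, 0.918 to 3.69 CPM in CHT and 2.21 to 8.64 CPM in IR/CHT, and MMP8, one of them, was at 0 in 26 of 27 aortas. The part of macrophage, T cell, smooth muscle, platelet and neutrophil RNA in the result was not tested.

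With the mean log2 CPM of the endothelial markers as a covariate, none of the 3 members was called in the aorta. These markers themselves rose in CHT and IR/CHT, so this model cannot separate the treatment from the endothelial markers. In CHT the differences became 0.44 for ICAM1 (adjusted p = 0.799), 1.01 for SELE (adjusted p = 0.594) and 0.13 for SELP (adjusted p = 0.952), and in IR/CHT they became 1.25 (adjusted p = 0.356), 1.70 (adjusted p = 0.282) and 0.04 (adjusted p = 0.986). Each member was also taken relative to the endothelial markers in the same library, and groups were set against each other by exact two-sided permutation with adjustment over 75 such comparisons. SELE in the IR/CHT aorta still exceeded Ctrl by 1.88 on the log2 scale (exact p = 0.00175, adjusted p = 0.0437), and the adjusted p was 0.0812 when low valve libraries were left out of the family of comparisons. In the CHT aorta the remaining differences of 0.44 for ICAM1 (exact p = 0.29, adjusted p = 0.558), 1.19 for SELE (exact p = 0.0187, adjusted p = 0.143) and 0.98 for SELP (exact p = 0.0245, adjusted p = 0.153) did not pass. The smallest p that these designs allow is 0.000583.

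**Figure D3:**
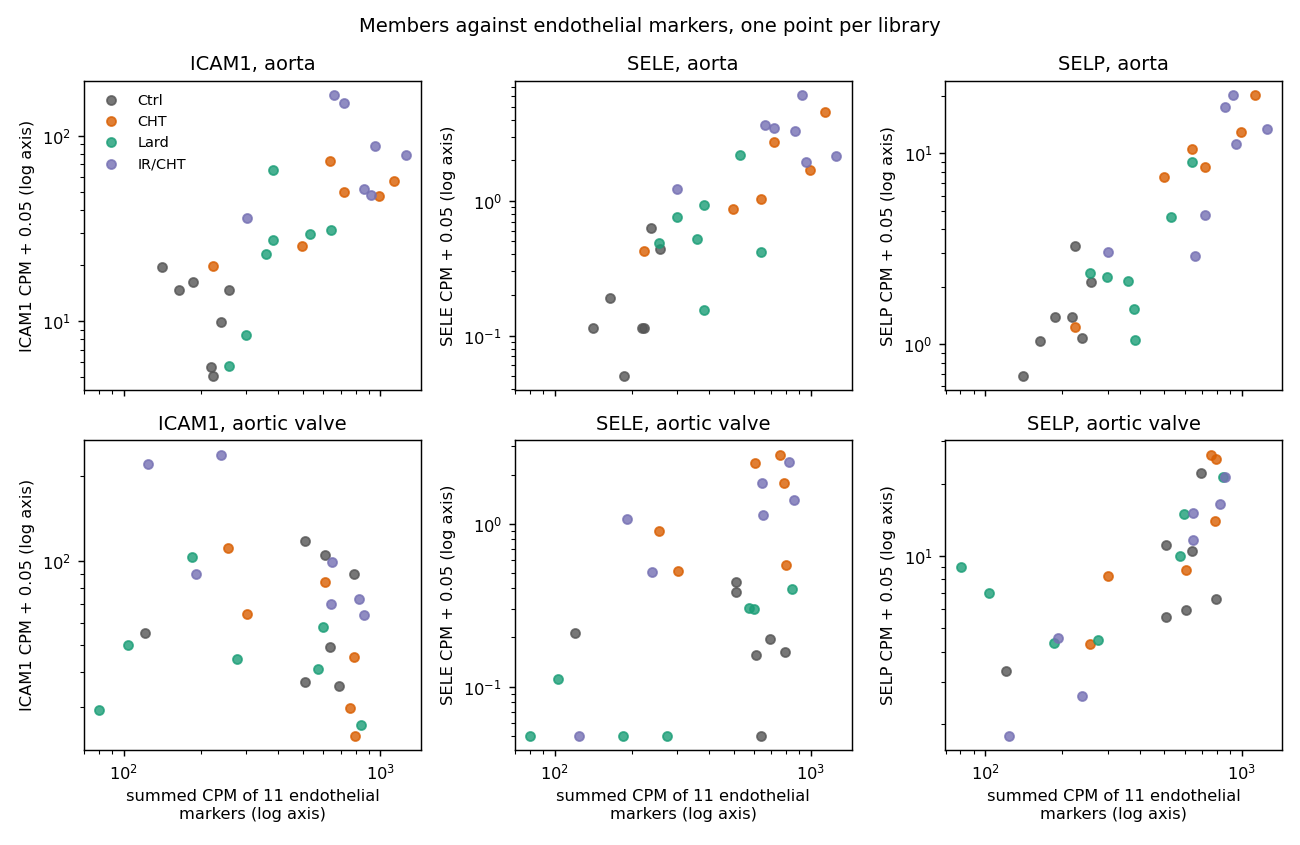
Level of a member (CPM plus a small constant that keeps a level of 0 on the log axis) against the summed CPM of 11 endothelial markers (log axis) in the aorta and the aortic valve, with 1 point for each library and treatments in colour. In the aorta both axes rise from Ctrl to CHT and IR/CHT, and in the aortic valve the treatments overlap on the horizontal axis while SELE is higher in CHT and in IR/CHT apart from library L178.

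In the aortic valve SELE was the only member called against Ctrl. It passed the filter on low counts through the CHT and IR/CHT libraries, and it failed it in the models of only 2 groups of CHT and IR/CHT against Ctrl and of Lard against CHT, which therefore gave no call. Without any filter, in the model of the 4 treatments, the 3 calls were kept (2.96, 2.65 and -3.29, adjusted p = 0.0183, 0.00915 and 0.00864). SELE ranged from 0 to 0.390 CPM (0 to 7 counts, median 0.147 CPM) in Ctrl and from 0.465 to 2.61 CPM (10 to 48 counts, median 1.296 CPM) in CHT, so that the groups did not overlap. It ranged from 0 to 2.34 CPM (median 1.07) in IR/CHT, where library L178 had no count, and from 0 to 0.345 CPM (median 0.0617) in Lard, where 3 libraries had none. The change was 7.70-fold in CHT (log2 2.95, SE 0.79, adjusted p = 0.0128) and 6.21-fold in IR/CHT (log2 2.63, SE 0.78, adjusted p = 0.00649) against Ctrl. Lard was lower than CHT by -3.28 (SE 0.79, adjusted p = 0.00609), again with no overlap, and the difference from Ctrl was -0.34 with an interval of -2.02 to 1.35.

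ICAM1 and SELP were not called in the aortic valve in any of the 5 comparisons. ICAM1 ranged from 35.6 to 117 CPM (median 55.1) in Ctrl, from 23.8 to 111 CPM (median 55.0) in CHT, from 25.9 to 103 CPM (median 44.6) in Lard and from 64.0 to 239.1 CPM (median 89.4) in IR/CHT. Its difference from Ctrl was -0.22 in CHT (interval -1.04 to 0.60, adjusted p = 0.727) and 0.80 in IR/CHT (interval 0.01 to 1.60, adjusted p = 0.0862). IR/CHT exceeded CHT by 1.02 (SE 0.41, adjusted p = 0.0697), a difference that DESeq2 called at 1.05 (adjusted p = 0.0468). SELP medians were 6.59 CPM in Ctrl, 11.3 in CHT, 8.997 in Lard and 11.6 in IR/CHT, with differences from Ctrl of 0.64 in CHT (interval -0.47 to 1.75) and 0.16 in IR/CHT (interval -0.91 to 1.23). The 1 member called stood beside 11.9% of all 15408 genes in CHT (8.42% higher), 42.8% in IR/CHT (21.1% higher) and 7.94% in Lard against CHT (7.16% lower). For Lard against Ctrl and IR/CHT against CHT, in which edgeR called 0 members, the shares of all genes were 0.234% and 19.7%, with 0 and 1 members at an unadjusted p under 0.05, and DESeq2 called 0 and 1.

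Endothelial markers were hardly called in the aortic valve. Of 11, 0 were called in CHT and 1 in IR/CHT by edgeR, with medians of 0.22 and -0.01, and their sum ranged from 120 to 792.5 CPM in Ctrl, 256 to 797 CPM in CHT and 124 to 861 CPM in IR/CHT. With the endothelial covariate SELE remained called in CHT (2.67, adjusted p = 0.00985), in IR/CHT (2.46, adjusted p = 0.00397) and in Lard against CHT (-2.90, adjusted p = 0.00844). Without the 6 libraries low in these markers, among them L178, the differences were 2.88 (adjusted p = 0.0085), 2.80 (adjusted p = 0.0036) and -2.66 (adjusted p = 0.0477). Relative to the endothelial markers, SELE exceeded Ctrl by 2.18 in CHT (exact p = 0.00699, adjusted p = 0.102) and by 2.06 in IR/CHT (exact p = 0.00583, adjusted p = 0.102). Macrophage markers rose in 6 of 13 in CHT and 11 of 13 in IR/CHT, with sums of 219 to 660 CPM in Ctrl, 860 to 1229 CPM in CHT and 2158 to 2661 CPM in IR/CHT, and heart muscle markers were called lower for 8 of 10 in CHT and 9 of 10 in IR/CHT, with sums of 194.9 to 12690 CPM in Ctrl, 14.6 to 365 CPM in CHT and 27.1 to 267.9 CPM in IR/CHT. Their part in the result was not tested. Within plate 1 alone the SELE differences kept their sign without passing, at 2.23 in CHT (adjusted p = 0.233), 1.48 in IR/CHT (adjusted p = 0.308) and -3.07 in Lard against CHT (adjusted p = 0.168), and on plate 2 SELE failed the filter. With the plate as a covariate they were 2.87 (adjusted p = 0.0366), 2.66 (adjusted p = 0.00751) and -3.19 (adjusted p = 0.0231).

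In the mitral valve SELE was again the only member called, and most clearly between the diets. It passed the low-count filter there mainly through the CHT and IR/CHT libraries. It ranged from 0 to 0.820 CPM (0 to 14 counts, median 0.272 CPM) in Ctrl, from 0.193 to 2.31 CPM (4 to 55 counts, median 1.504 CPM) in CHT, from 0 to 0.182 CPM (0 to 4 counts, median 0.0506 CPM) in Lard and from 0.528 to 2.00 CPM (10 to 40 counts, median 0.808 CPM) in IR/CHT. Every Lard library was below every CHT library in CPM, although the highest Lard count and the lowest CHT count were both 4. CHT and Ctrl overlapped. Lard was lower than CHT by -4.26 (SE 0.71, adjusted p = 0.000177), beside 6.05% of 15322 genes called and 5.29% called lower, and the call was kept in all models that left out 1 library of the 4 treatments. SELE failed the low-count filter in the model of those 2 groups alone, and without any filter the difference was -4.26 (adjusted p = 0.00017). CHT exceeded Ctrl by 2.08 (SE 0.64, adjusted p = 0.0489), beside 5.62% of genes called and 4.98% called higher. That call was near the threshold, and it was lost in 9 of 12 models without 1 library (adjusted p of up to 0.117), with the plate as a covariate (2.01, adjusted p = 0.11), with the endothelial covariate (1.94, adjusted p = 0.0597), without any filter on low counts (2.12, adjusted p = 0.0664) and without the 5 libraries low in endothelial markers (1.67, adjusted p = 0.249). On plate 1 alone the differences were 2.66 for CHT against Ctrl (adjusted p = 0.0727) and -3.45 for Lard against CHT (adjusted p = 0.0881).

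Against Ctrl, IR/CHT called 0 members in the mitral valve by edgeR with 2 at an unadjusted p under 0.05, DESeq2 called 2, and 17.7% of all genes were called. In 4 of 13 models without 1 library, and with the endothelial covariate, 1 member was called. ICAM1 ranged from 26.7 to 79.4 CPM (median 44.3) in Ctrl and from 38.3 to 170 CPM (median 72.8) in IR/CHT, a difference of 0.93 (SE 0.36, interval 0.19 to 1.67, adjusted p = 0.0558), and the difference was 0.70 on plate 1 (adjusted p = 0.389) and 1.39 on plate 2 (adjusted p = 0.0955). SELE differed by 1.43 (interval 0.15 to 2.71, adjusted p = 0.0922). SELP differed by -0.06 (interval -1.09 to 0.97), while relative to the endothelial markers it was lower in IR/CHT by -1.28 (exact p = 0.00117, adjusted p = 0.0437). Of the 6 Ctrl libraries, 3 had endothelial sums of only 105 to 180 CPM, and without the low libraries that difference was -0.81 (exact p = 0.167, adjusted p = 0.417), where the smallest p 3 against 7 libraries can give is 0.00833. Lard against Ctrl called 0 members with 1 at an unadjusted p under 0.05, namely SELE at -2.17 (interval -3.68 to -0.66, adjusted p = 1), and both edgeR and DESeq2 called 0 of all genes. IR/CHT against CHT called 0 members by either tool, with 0 at an unadjusted p under 0.05, beside 0.189% of all genes. The summed endothelial markers of the mitral valve ranged from 105 to 1325 CPM in Ctrl and from 396 to 1872 CPM in IR/CHT, with 0 of 11 called by edgeR in CHT and 2 of 11 in IR/CHT. Macrophage markers were called higher for 9 of 13 in CHT and 10 of 13 in IR/CHT, and their sum went from 238.6 to 724 CPM in Ctrl to 688 to 1143 CPM in CHT. Their part in the result was not tested.

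In the pulmonary and tricuspid valves no member was called in any comparison. Against Ctrl, edgeR called 0.159% of all genes in CHT, 0% in Lard and 0.706% in IR/CHT of the pulmonary valve, and 0.163%, 0% and 0.231% in the tricuspid valve. IR/CHT against CHT and Lard against CHT gave 0.0761% and 0.152% of genes in the pulmonary valve and 0% and 0.0884% in the tricuspid valve. At an unadjusted p under 0.05, the pulmonary valve had 1 member in IR/CHT and 1 in Lard against Ctrl, the tricuspid valve had 1 in Lard against Ctrl, and the other comparisons of these valves had 0, and DESeq2 called 0 members in each of them. SELP in the pulmonary valve ranged from 24.7 to 45.5 CPM (median 37.7) in Ctrl, from 30.8 to 71.3 CPM (median 46.0) in CHT, from 34.4 to 61.6 CPM (median 48.1) in Lard and from 8.15 to 67.9 CPM (median 49.9) in IR/CHT, with the groups overlapping throughout. The lowest value belonged to library L275, whose endothelial markers summed to 130 CPM, the lowest of that valve. Relative to the endothelial markers, SELP in IR/CHT exceeded Ctrl by 0.77 in the pulmonary valve (exact p = 0.00117, adjusted p = 0.0437), a call that was lost when the median of the markers replaced their mean and without the libraries low in these markers (0.73, exact p = 0.00233, adjusted p = 0.0812).

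ICAM1 in the pulmonary valve had group medians of 14.2 CPM in Ctrl, 16.8 in CHT, 12.9 in Lard and 18.7 in IR/CHT, and the difference of IR/CHT from Ctrl was 0.57 (interval 0.05 to 1.08, adjusted p = 0.28). SELE estimates were below 0 in all 5 comparisons of the pulmonary valve, from -1.43 to -0.26, and none was called. That of Lard against Ctrl had an interval wholly below 0 (-2.66 to -0.20, adjusted p = 0.9997). In the tricuspid valve the medians of ICAM1 were 18.7 CPM in Ctrl, 16.8 in CHT, 13.9 in Lard and 20.2 in IR/CHT. Its difference of Lard from Ctrl, -1.17 (interval -2.32 to -0.02, adjusted p = 0.611), includes the high Ctrl library L168. SELP medians in that valve were 24.9, 31.6, 30.98 and 29.7 CPM in the same order.

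The responses of tissues were set against each other as interactions, called at an adjusted p under 0.05 without a fold limit. The response of ICAM1 to CHT was smaller in the aortic valve than in the aorta by -2.11 on the log2 scale (SE 0.62, adjusted p = 0.0184), and the response to IR/CHT by -2.04 (SE 0.59, adjusted p = 0.00424). For SELP these differences were -2.10 (SE 0.70, adjusted p = 0.0389) and -2.61 (SE 0.68, adjusted p = 0.00137). Under Lard the ICAM1 difference was -1.62 (adjusted p = 0.0818), and no member was called beside 4.8% of all genes, with 2 members at an unadjusted p under 0.05 by edgeR and 1 called by DESeq2. ICAM1 was called there with the rabbit as a block (-1.57, adjusted p = 0.0339) and without the libraries low in endothelial markers (-1.96, adjusted p = 0.0398). SELE showed no called difference between these tissues, at -0.34 for CHT (interval -2.59 to 1.91) and -1.37 for IR/CHT (interval -3.55 to 0.81). Of all genes, 10.3% were called in the CHT and 36.7% in the IR/CHT interaction of aortic valve and aorta. With the endothelial covariate the ICAM1 differences were -2.69 (adjusted p = 0.00197) and -2.81 (adjusted p = 0.000112), and those of SELP were -0.91 (adjusted p = 0.204) and -1.32 (adjusted p = 0.0313).

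SELE responded less in the pulmonary than in the aortic valve, by -3.42 for CHT (SE 1.08, adjusted p = 0.041) and by -3.41 for IR/CHT (SE 1.04, adjusted p = 0.00552), beside 5.11% and 40.8% of all genes. With the plate as a covariate the first was -3.34 (adjusted p = 0.0571) and the second -3.48 (adjusted p = 0.00478). Without the filter on low counts the CHT difference was not called either. SELE had 0 to 7 counts in the Ctrl aortic valve. In the interaction of tricuspid and mitral valve, edgeR and DESeq2 called 0 members for CHT and for IR/CHT with 0 at an unadjusted p under 0.05, beside 2.2% and 8.21% of all genes. The same held for the mitral against the aortic valve under IR/CHT, beside 18.8% of all genes.

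The partners of these molecules on the leukocyte rose in the same aortas. Of 8 integrin genes whose products bind ICAM1 or VCAM1, 7 were called higher in the CHT aorta and 7 in the IR/CHT aorta, where ITGB1, the β1 chain found on most cells, was lower by -1.07, and 5 in the Lard aorta, with median log2 changes of 6.0023, 6.85 and 3.10, beside 19.4%, 34.3% and 2.61% of all genes called. ITGB2, the β2 chain shared by the ICAM1-binding integrins of leukocytes, rose by 5.69 in CHT (SE 0.65, adjusted p = 2.21e-07) and by 3.10 in Lard (adjusted p = 0.00449). ITGAM, its partner in Mac-1, rose by 6.45 (adjusted p = 5.59e-09) and 3.62 (adjusted p = 0.000637), and ITGAL, its partner in LFA-1, by 6.32 (adjusted p = 2.31e-07) and 3.10 (adjusted p = 0.00979). ITGA4, the α4 chain that binds VCAM1, rose by 2.08 in CHT (SE 0.38, adjusted p = 0.000158). Apart from ITGB1, these are mainly genes of leukocytes, and the macrophage markers of the same libraries rose beside them as given above.

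The integrins also rose in valves where ICAM1 was not called. In the aortic valve 7 of 8 were called higher in CHT and 8 of 8 in IR/CHT, with medians of 3.78 and 5.45, beside 8.42% and 21.1% of all genes called higher. ITGB2 rose there by 3.37 (adjusted p = 1.54e-07) and 5.60 (adjusted p = 1.35e-11), and ITGA4 by 2.94 (adjusted p = 8.72e-07) and 4.28 (adjusted p = 4.75e-10). In the mitral valve 6 and 7 of 8 were called higher, where 5.62% and 17.7% of all genes were called in either direction, with ITGB2 at 3.12 (adjusted p = 2.24e-05) and 4.14 (adjusted p = 1.92e-07). In the pulmonary valve 3 of 7 were called in IR/CHT, with ITGAM at 1.42 (adjusted p = 0.000183), and in the tricuspid valve 1 was, ITGAM at 1.74 (adjusted p = 0.000197), where 0.706% and 0.231% of all genes were called in the IR/CHT pulmonary and tricuspid valve.

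Another list held 9 adhesion genes of endothelium, most of them of the immunoglobulin superfamily. Of these, 3 were called higher and 1 lower in the CHT aorta, 5 and 2 in the IR/CHT aorta and 0 in the Lard aorta by edgeR. The medians were 0.41, 0.79 and 0.40. Of all genes, 14.2% were called higher and 19.4% in all in the CHT aorta, and 22.2% and 34.3% in the IR/CHT aorta. PECAM1, found at the junctions of endothelial cells and itself an endothelial marker, rose by 1.96 in CHT (SE 0.34, adjusted p = 7.28e-05) and by 1.98 in IR/CHT (adjusted p = 2.15e-05). ICAM2, a constitutive endothelial ligand of the β2 integrins, rose by 1.87 in CHT (adjusted p = 9.48e-05), and ALCAM, an adhesion molecule of endothelium and leukocytes, by 0.87 (adjusted p = 0.00149). MCAM, made by smooth muscle as well as endothelium, fell in CHT by 0.66 (adjusted p = 0.0253). In the aortic valve ALCAM rose by 2.62 in CHT (adjusted p = 1.87e-06), the only gene called of this list in that comparison, whereas PECAM1 differed by 0.26 and was not called. In IR/CHT the aortic valve had 3 called higher and 3 lower, beside 42.8% of all genes, and the mitral valve had 2 higher in CHT, beside 4.98% of all genes called higher, and 2 higher with 1 lower in IR/CHT, beside 17.7% called.

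Genes that build or carry selectin ligands were called higher for 4 of 11 in the CHT aorta and 5 of 11 in the IR/CHT aorta, with medians of 0.05 and 0.59, and for 0 of 11 in the Lard aorta by edgeR. The shares of all genes called higher there were 14.2% in CHT and 22.2% in IR/CHT. GCNT1, an enzyme that branches the O-glycans read by selectins, rose by 2.77 in CHT (adjusted p = 2.28e-06), CD44, a glycoprotein ligand of E-selectin, by 1.03 (adjusted p = 8.77e-06), and EMCN, an endothelial sialomucin, by 2.15 (adjusted p = 9.99e-05). In the aortic valve 3 of 11 were higher and 1 lower in CHT, and 5 higher and 1 lower in IR/CHT, beside 8.42% and 21.1% of all genes called higher. In the mitral valve these counts were 2 and 1 in CHT and 3 and 1 in IR/CHT, beside 5.62% and 17.7% of all genes called.

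Cytokine and NF-κB pathway genes, a list that also holds targets of NF-κB, were called higher for 10 of 23 and lower for 1 in the CHT aorta. In the IR/CHT aorta 14 of 23 were called higher, and the medians were 0.62 in CHT and 0.96 in IR/CHT. In the Lard aorta 1 was called, where 2.61% of all genes were called. Of all genes, 14.2% were called higher in the CHT and 22.2% in the IR/CHT aorta. TNF, a cytokine that induces E-selectin and ICAM1, rose by 3.95 in CHT (SE 0.65, adjusted p = 3.8e-05) and 4.09 in IR/CHT (adjusted p = 9.68e-06), and was at -0.10 in Lard without a call. IL1B was at 1.80 in CHT (adjusted p = 0.0828) and rose by 2.74 in IR/CHT (adjusted p = 0.00311). TLR2, a receptor of bacterial lipoproteins, rose by 3.18 in CHT (adjusted p = 5.12e-08) and by 1.57 in Lard (adjusted p = 0.0067), TLR4, the endotoxin receptor, by 2.52 in CHT (adjusted p = 8.69e-07), and BIRC3, an NF-κB target, by 2.07 (adjusted p = 3.18e-06). NFKBIA, which encodes the inhibitor of NF-κB and is also its target, was the gene that fell in CHT, by 0.86 (adjusted p = 3.82e-05). In the aortic valve 6 of 22 were higher in CHT and 9 of 22 in IR/CHT, beside 8.42% and 21.1% of all genes, with TNF at 2.93 (adjusted p = 0.0111) and 4.34 (adjusted p = 4.85e-05), and in the mitral valve 2 and 5 of 21 were, beside 5.62% and 17.7% of all genes called, with TNF at 1.58 (adjusted p = 0.336) and 2.14 (adjusted p = 0.0514).

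Genes that restrain endothelial activation or answer to shear stress were called higher for 4 of 5 in the CHT and IR/CHT aorta and for 1 of 5 in the Lard aorta, where 14.2%, 22.2% and 2.61% of all genes were called (higher in CHT and IR/CHT, either way in Lard). HMOX1, the heme-degrading enzyme that is also abundant in macrophages, rose by 2.97 in CHT (adjusted p = 3.89e-06). TEK, the endothelial angiopoietin receptor, rose by 1.12 in CHT (adjusted p = 0.0025) and 1.08 in Lard (adjusted p = 0.0214), and NOS3, the endothelial nitric oxide synthase, by 2.23 in CHT (adjusted p = 0.00284). In the aortic valve 1 of 5 was called in each of CHT and IR/CHT, HMOX1 at 1.61 and 3.60, while NOS3 was at -0.72 and -1.66 (adjusted p = 0.0552) without a call, and in the mitral valve 1 of 5 was called in each. Of all genes, 8.42% and 21.1% were called higher in the aortic valve, and 5.62% and 17.7% were called in either direction in the mitral valve. Of 8 genes for the proteins that anchor ICAM1 and VCAM1 to actin beneath an adhering leukocyte, 2 were called higher and 1 lower in the CHT aorta, among them RHOG at 1.06 (adjusted p = 2.24e-06) and ARHGEF26 at -1.14 (adjusted p = 0.00128), and 2 higher and 1 lower in the IR/CHT aorta. The shares of all genes called in either direction were 19.4% and 34.3%.

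**Figure D4:**
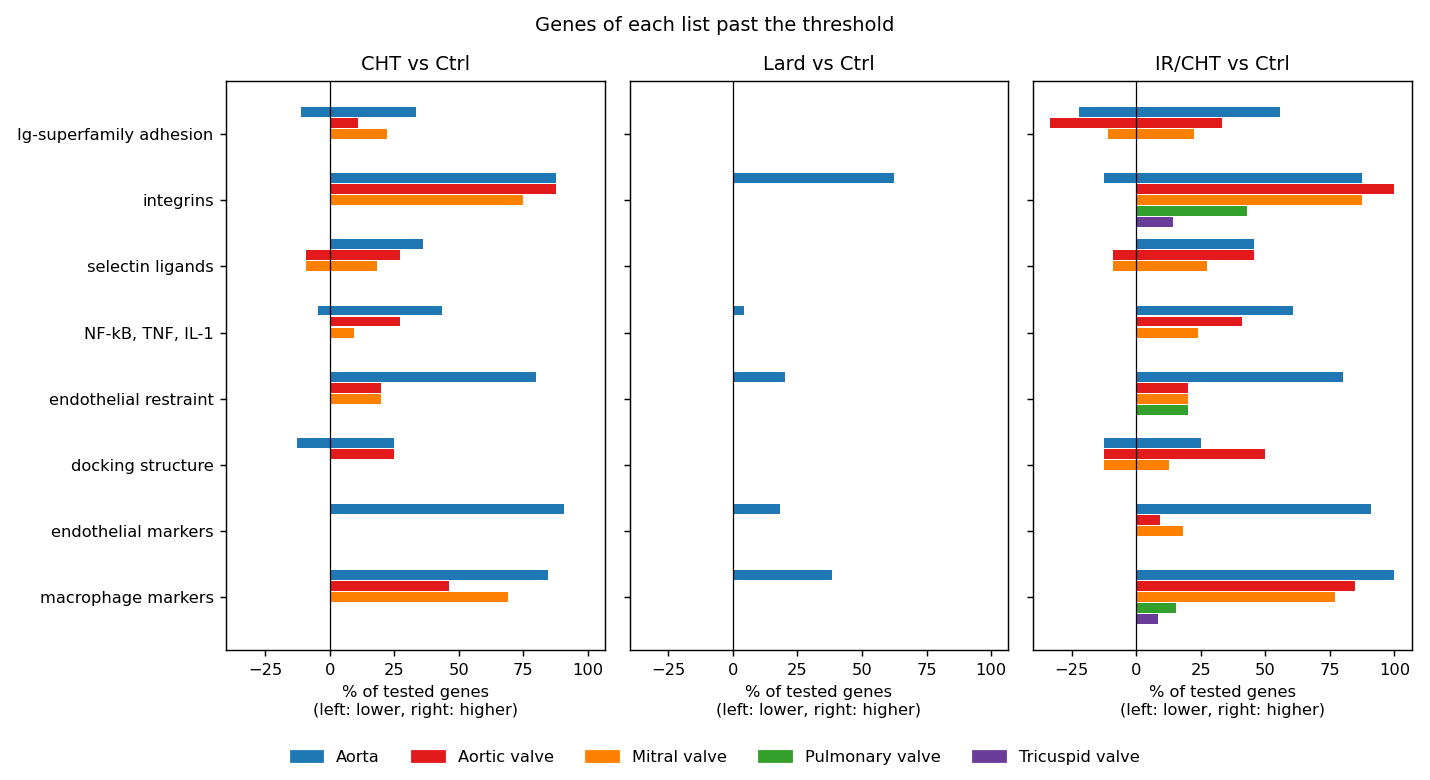
Share of the tested genes of each list that were called higher (right) or lower (left), by tissue, for 3 treatments against Ctrl. In CHT, 7 of 8 integrins are called higher in both the aorta and the aortic valve, while endothelial markers are called in the CHT aorta (10 of 11) and not in the CHT aortic valve (0 of 11).

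The 3 genes differed in what they varied with across libraries once the mean of each tissue and treatment was removed. Over all libraries (27 of each tissue, 26 of the mitral valve), which share rabbits and plates, Pearson's r of these deviations was -0.48 between ICAM1 and SELP, 0.42 between SELE and SELP and -0.08 between ICAM1 and SELE. With the endothelial markers r was 0.71 for SELP, 0.44 for SELE and -0.19 for ICAM1. The leading axis of these deviations over all genes held 22.6% of their variance, and its r was 0.87 with ICAM1, -0.65 with SELP and -0.22 with SELE.

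The genes most like each member were taken among 11249 genes with a symbol over the same libraries. By levels they were LASP1, RARA, PALD1 and LHFPL2 (each r = 0.948) and PSD4 (0.945) for ICAM1, and TEK (0.902), CDH11 (0.896), ITGA6 (0.895), ADGRF5 (0.889) and CEMIP2 (0.888) for SELP. SELE had lower values, led by SKAP2 (0.687), PLA1A (0.678), CTSC (0.659), REL (0.657) and IGSF6 (0.649). By deviations from the group means they were SH3BP2 (0.922), LMNA (0.908), PARP3 (0.907), FMNL3 (0.897) and FOSL2 (0.894) for ICAM1, CEMIP2 (0.871), TEK (0.838), EMCN (0.819), ADGRF5 (0.800) and FLI1 (0.795) for SELP, and TM4SF18 (0.482), F5 (0.477), EMCN (0.472), ACSL5 (0.457) and AFAP1L1 (0.454) for SELE. TEK, ADGRF5 and EMCN, known from endothelium, appear for SELP and EMCN for SELE.

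In the treated groups, but not in Ctrl, a single animal led the ICAM1 levels of several tissues. Among Ctrl rabbits a different animal was highest in each of the 5 tissues. Rabbit L28392 had the highest ICAM1 of the 7 IR/CHT animals in the aorta and the aortic, mitral and tricuspid valves and was next to highest in the pulmonary valve, and rabbit L28389 followed it in the same 4 tissues. In CHT, rabbit L09684 was highest in the aortic, mitral and pulmonary valves and next to highest in the aorta and the tricuspid valve, and in Lard, rabbit L09695 was highest in the aorta and the mitral and tricuspid valves. Many of these libraries also stood apart over all genes. On the leading axis of all genes, counted from the end where ICAM1 was high, those of L28392 ranked 2 of 27 for the tricuspid valve, 3 of 27 for the aorta and the aortic valve and 3 of 26 for the mitral valve, but 20 of 27 for the pulmonary valve. Those of L28389 ranked 4 for the aorta, 5 for the aortic valve, 1 for the mitral valve and 22 for the tricuspid valve, and those of L09695 ranked 2 in the aorta and 5 in the mitral and the tricuspid valve, whereas those of L09684 ranked 6 to 13. Whether the orders are particular to ICAM1 was not tested, and they are given as a description.

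**Figure D5:**
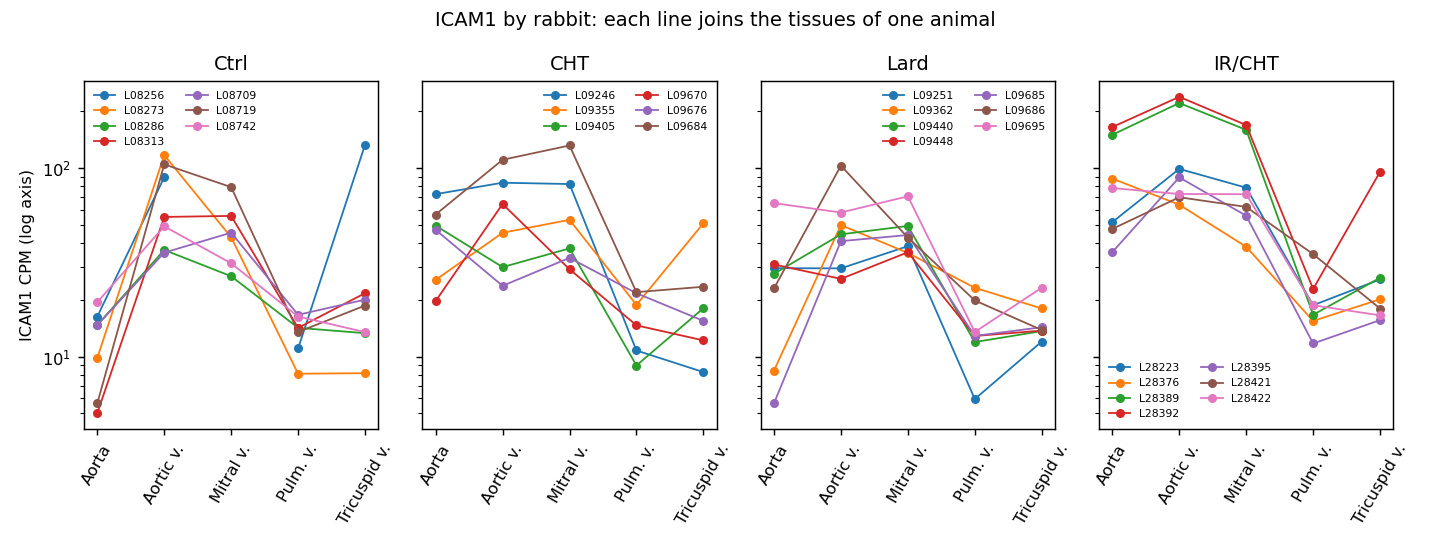
ICAM1 level (CPM, log axis) by tissue for each rabbit, with 1 panel for each treatment and a line joining the tissues of an animal; the gap is a rabbit without a mitral library. In the IR/CHT panel the line of rabbit L28392 is highest in 4 of 5 tissues, reaching 165 CPM (aorta) and 239.1 CPM (aortic valve).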

How the data were processed

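The authors deposited counts per gene of 134 libraries from 27 rabbits, with a table for plate 1 and another for plate 2. The submitters' processing notes name bcl2fastq 2.20, and per the study's methods the nf-core/rnaseq pipeline mapped the reads to OryCun2.0 and counted them on Ensembl genes. The deposited counts were whole and not normalized, with each replicate in a column of its own. The tables hold 29587 genes in common, 14716 of them with a symbol, and 0 sample columns were left unused. A gene without a symbol could not be found by the rule on members or lists.

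Differences were tested with edgeR 4.0.16 in R 4.3.3 (filterByExpr, TMM, robust quasi-likelihood fit, no covariates). Within each tissue, 5 comparisons were made among the 4 treatments. Tissues on chow and the differences of responses between tissues were tested in 1 model of all libraries. A call required a p under 0.05 after Benjamini-Hochberg adjustment over all genes tested and a fold change over 1.5, and interactions were called at the adjusted p alone. Intervals are 95% intervals of the log2 fold change. CPM values use TMM library sizes over all libraries, and log2 CPM values have a prior count of 2. At total counts of 13564979 or more, SELE had few counts in many libraries, and a count of 0 allows up to 3 counts by counting error. The tests across genes were checked on simulated data whose changed genes had more counts on average than SELE, so the check does not cover SELE.

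The members, the gene lists and the comparisons were chosen with earlier results of these data known. From each list of pathway genes, the 3 genes with the smallest p in the aorta of CHT against Ctrl are named, with TNF, IL1B, NFKBIA, ITGA4, ITGB2 and PECAM1 always. SELPLG was not analysed here. Some genes of these lists that the rule would name are not reported here.

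The rabbit of each library was read from the first part of its column name. Libraries of the same rabbit deviated together from their group means: the median correlation was 0.135 to 0.434 over pairs of tissues, against -0.015 to 0.0105 for other pairs, and exceeded 0.1 in 17 of 27 rabbits for aorta and aortic valve and in 26 of 26 for aortic and mitral valve.

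Alternatives were DESeq2 1.42.0, no filter, DESeq2 size factors in place of TMM, only the groups compared, the plate as a covariate or each plate alone, the rabbit as a block, leaving out each library in turn and, added after seeing the data, an endothelial covariate and leaving out libraries low in endothelial markers.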

Additional observations from a re-analysis of the deposited data

Results flagged for a closer look

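In 10 of the 60 combinations of a member, a tissue and a treatment, a single library lay far from the others of its group. For independent, normally distributed values chance gives about 1 in 20 groups, a rate that was not measured on these values, whose groups share rabbits across tissues. For ICAM1 this was the highest library in 6 groups: L578 of the Lard aorta at 65.3 CPM (the next at 30.9), L269 of the Lard aortic valve at 103 CPM (58.2), L544 of the Lard mitral valve at 70.9 CPM (49.4), L168 of the Ctrl tricuspid valve at 133 CPM (21.7), L172 of the CHT tricuspid valve at 51.0 CPM (23.5) and L197 of the IR/CHT tricuspid valve at 95.7 CPM (26.2). The endothelial markers of L168 summed to 475.7 CPM, against 1186 CPM or more in the other Ctrl tricuspid valves. The endothelial markers of L269, at 184.8 CPM, were also low for its valve. On the leading axis of all genes, counted from the end where ICAM1 was high, all 6 of these libraries were near that end: L168, L197 and L172 ranked 1, 2 and 3 of 27 tricuspid libraries, L578 ranked 2 of 27 aortas, L269 ranked 4 of 27 aortic valves and L544 ranked 5 of 26 mitral valves. For SELE it was the highest library, L562 of the Lard aorta at 2.15 CPM (0.880) and L237 of the IR/CHT mitral valve at 2.00 CPM (0.999). For SELP it was L277 of the Ctrl aortic valve, the highest at 22.1 CPM (11.1), and L275 of the IR/CHT pulmonary valve, the lowest at 8.15 CPM (42.6), whose endothelial markers summed to 130 CPM. On the same axis L275 ranked 1 of 27 and L277 ranked 27 of 27, while L562 ranked 7 of 27 and L237 ranked 22 of 26. What sets these libraries apart was not tested.

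The response of a member differed between tissues in 6 of 48 tests of the difference itself. Between the aortic valve and the aorta these were ICAM1 under CHT (-2.11) and IR/CHT (-2.04) and SELP under CHT (-2.10) and IR/CHT (-2.61), and between the pulmonary and the aortic valve they were SELE under CHT (-3.42) and IR/CHT (-3.41), all on the log2 scale.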

How the results depend on the processing

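Counts of called members moved by more than 1.5 times as follows. With the endothelial covariate they went from 3 to 0 in CHT and in IR/CHT against Ctrl and from 1 to 0 in Lard against CHT of the aorta, from 1 to 0 in CHT and from 0 to 1 in IR/CHT against Ctrl of the mitral valve, from 2 to 1 for the pulmonary valve against the aorta on chow, from 2 to 0 for tricuspid against aortic valve, from 2 to 1 for tricuspid against pulmonary valve, and in the interactions of aortic valve and aorta from 2 to 1 (CHT) and 0 to 1 (Lard). Without the libraries low in endothelial markers, CHT against Ctrl of the mitral valve went from 1 to 0, and chow counts from 2 to 1 (tricuspid valve against aorta, and against pulmonary valve), 0 to 1 (mitral against aortic) and 1 to 0 (pulmonary against mitral), and the Lard interaction from 0 to 1. With only the groups compared, 1 became 0 in Lard against CHT of the aorta, aortic and mitral valve, in CHT against Ctrl of both valves and in IR/CHT against Ctrl of the aortic valve, 2 became 1 for tricuspid against pulmonary valve (only Ctrl) and for the CHT interaction of aortic valve and aorta (only those tissues). In those fits of the aortic valve SELE failed the filter on low counts. On 1 plate alone those 5 valve counts were also 0 (IR/CHT of the aortic valve on either plate). The plate covariate took CHT of the mitral valve and the CHT interaction of pulmonary and aortic valve from 1 to 0. Without the filter, CHT of the mitral valve, Lard against CHT of the aorta and that interaction went from 1 to 0, and the CHT interaction of aortic valve and aorta from 2 to 1. In 1 model of all tissues CHT of the mitral valve had 0. DESeq2 gave 1 for IR/CHT against CHT of the aortic valve and 2 for IR/CHT of the mitral valve (both 0 by edgeR), 2 for pulmonary against mitral valve and 1 for the Lard interaction. Of tests relative to endothelial markers, Lard against CHT of the aortic valve went from 0 to 1 with a prior count of 0.5, and IR/CHT of the pulmonary valve from 1 to 0 with the median of the markers, and without the low libraries IR/CHT of the aorta, mitral and pulmonary valve went from 1 to 0. No aorta library was left out there, and only the adjustment over the 75 tests moved (SELE exact p = 0.00175, adjusted p = 0.0812). The causes of the other changes were not tested.

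With the rabbit as a replicate block, the pulmonary against the mitral valve on chow had 3 members in place of 1 (SELE 1.84, adjusted p = 0.0437, and SELP 1.30, adjusted p = 0.0163, added), the tricuspid against the mitral valve 1 in place of 0 (ICAM1 -1.11, adjusted p = 0.0315), the tricuspid against the pulmonary valve 1 in place of 2 (ICAM1 0.76, adjusted p = 0.146), and the Lard interaction of aortic valve and aorta 1 in place of 0 (ICAM1 -1.57, adjusted p = 0.0339), and the block changed no other call.

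Leaving out each library in turn gave 0 to 2 members for Lard against CHT of the aorta, 1 to 2 for IR/CHT against Ctrl and 0 to 1 for IR/CHT against CHT of the aortic valve, 0 to 1 for CHT and for IR/CHT against Ctrl of the mitral valve, and on chow 1 to 2 for tricuspid valve against aorta and against aortic valve, 0 to 1 for mitral against aortic valve and for tricuspid against mitral valve, 1 to 2 for pulmonary against mitral valve and 0 to 2 for tricuspid against pulmonary valve. No called value of a member changed sign. SELE, at 0 to 14 counts per library in the Ctrl aorta and the Ctrl aortic and mitral valves, is limited by depth.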
